A study of Drosophila melanogaster with 18 samples.

Results

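In ac4C-RIP-seq of whole Drosophila melanogaster larvae of the third instar, 100 of 12301 listed genes met the rule used here. They lay at least 2-fold from control in the same direction in both knockdown genotypes. They also passed a floor on level, and 13 further genes were left out by family name. Of the 100, 76 were raised and 24 were lowered. The study set 3 genotypes side by side: Dats-GAL4 > UAS-NAT10-RNAi Xrp1-RNAi (both constructs), Dats-GAL4 > UAS-NAT10-RNAi (NAT10 RNAi alone), and Dats-GAL4/+ as control. Each genotype gave 3 biological replicates of 40 pooled larvae, each read as an input library and as an immunoprecipitate (IP) with an ac4C antibody, 18 libraries in all. Per the labels' protocols, the driver is active in the whole body and is held back by a temperature-sensitive GAL80 until larvae are moved from 18 °C to 30 °C. Control larvae were taken 72 h after the shift and NAT10 knockdown larvae after 120 h, because the knockdown slows development, and the labels give no separate time for larvae with both constructs. Genotype and time of harvest therefore cannot be told apart between NAT10 RNAi alone and control, and a difference in harvest time between larvae with both constructs and either other genotype is not known.

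NAT10 is the enzyme that acetylates cytidine in RNA, giving the mark ac4C. Xrp1 is a stress-induced transcription factor of the basic leucine zipper class, known in flies for its part in the loss of slow-growing cells. Late larvae feed with a gut that secretes starch and protein digesting enzymes, grow their body wall muscle, and, near the end of the last instar, fill their salivary glands with glue proteins under control of the moulting hormone ecdysone. A gene with the same shift in both knockdown genotypes is one whose difference from control is present with and without the Xrp1 construct.

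Members were chosen on input FPKM, the number of fragments per kilobase of gene, scaled to the reads of the library. The log2 ratio of the mean over 3 libraries plus 1, against the control mean plus 1, had to be at least 1 in both genotypes, or at most -1 in both, and the highest genotype mean had to reach 5 FPKM. Genes whose names start with Cyp, Gst, Ugt, Cpr, Lcp, Jon, Sgs or Hsp were left out, which removed 7 raised and 6 lowered genes. Among the 7758 genes with a mean of at least 5 FPKM, the rule before these families were dropped took 1.07% as raised in both and 0.387% as lowered in both. At least 2-fold with both constructs, 1.55% were higher and 0.619% lower, and with NAT10 RNAi alone 5.99% were higher and 2.76% lower. The values against control chose the members, so they are given as a description, with no test. The difference between the knockdown genotypes was not part of the rule and was tested, although the same libraries decided who is a member.

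Input depth was 15518179 to 24272099 reads in genes per library. Replicates of 1 genotype differed by more than counting noise, with a chi-square per degree of freedom of 3.30 to 11.6 with both constructs, 1.41 to 1.85 with NAT10 RNAi alone and 1.86 to 3.95 in control. Replicate 1 with both constructs stood apart from its group, at 8.15 and 11.6 against the other libraries of that group, which differed from each other by 3.30. It gave the lowest of the 3 values for 49 of 76 raised and 14 of 24 lowered members. The share over all genes was not counted, so nothing about the members is read from this. Xrp1 itself was at 40.4, 40.9 and 43.9 FPKM with both constructs, 384.6, 386.5 and 385.4 FPKM with NAT10 RNAi alone and 208, 211 and 214 FPKM in control, so the libraries with the Xrp1 construct held the least of its RNA. NAT10, listed as l(1)G0020, was at 6.18, 6.04 and 6.02 FPKM with both constructs, 5.22, 5.93 and 5.76 FPKM with NAT10 RNAi alone and 5.13, 4.97 and 5.46 FPKM in control. Its RNA was thus not lower in either knockdown genotype, which goes against the label at RNA level, so both constructs and NAT10 RNAi alone name libraries by their labels here and in every direction given.

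In the raised members the difference from control was mostly larger with NAT10 RNAi alone. Their median log2 change was 1.33 with both constructs, up to 2.65, and 2.00 with NAT10 RNAi alone, between 1.05 and 4.62. The change with NAT10 RNAi alone was the larger of the pair in 68 of 76 raised members. Over genes with a mean of at least 5 FPKM the median change was 0.01 with both constructs and 0.17 with NAT10 RNAi alone. This count and that for lowered members below were not made over all genes, so nothing is read from them. In the lowered members the median was -1.63 with both constructs and -1.72 with NAT10 RNAi alone, and single members differed in both directions. The change was larger with NAT10 RNAi alone in 11 of 24, such as CG14332 with -1.04 with both constructs and -3.57 with NAT10 RNAi alone, while CG7587 had -6.11 with both constructs and -2.46 with NAT10 RNAi alone. Every library of both knockdown genotypes lay beyond all control libraries in all 76 raised and all 24 lowered members. Of all listed genes, 24.5% were higher without overlap and 23.8% lower with both constructs, and 50.5% and 21.1% with NAT10 RNAi alone. The rule selects such genes, so nothing is read from this. In whole larvae, fewer cells of a type and less RNA per cell cannot be told apart.

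**Figure D1:**
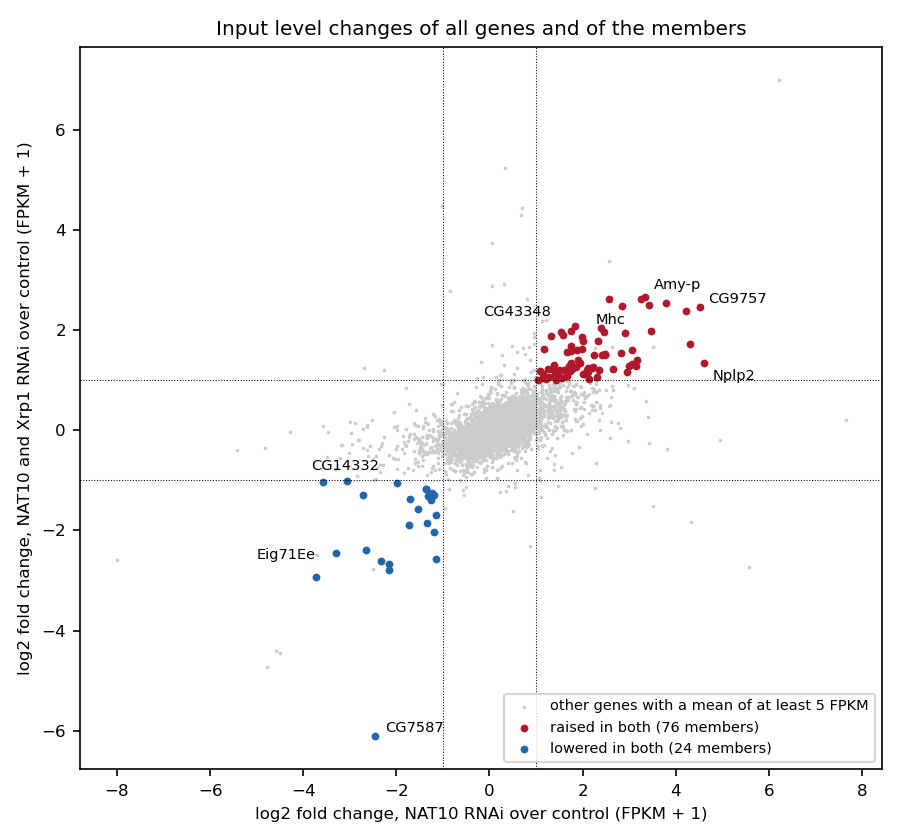
Log2 change of mean input FPKM plus 1 with both constructs over control (vertical axis) against the change with NAT10 RNAi alone over control (horizontal axis), for genes with a mean of at least 5 FPKM. Red points are the 76 raised members, blue points the 24 lowered members, and dotted lines the threshold of 1 and -1. Both axes use the same control libraries. Most red points lie further from 0 along the horizontal axis, with Nplp2 and CG9757 at the far right, and CG7587 lies lowest at -6.11 on the vertical axis.

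Ranked by the smaller of their changes against control, the first 3 raised members were enzymes of starch digestion, Amy-p, Mal-A3 and Mal-A4. Amy-p and Amy-d encode alpha-amylases, which cut starch in the gut, and Mal-A3 and Mal-A4 encode maltases, which release glucose from its fragments. Amy-p (FBgn0000079) was at 17.3, 23.8 and 24.2 FPKM with both constructs, 36.2, 37.1 and 34.1 FPKM with NAT10 RNAi alone and 3.25, 1.901 and 2.702 FPKM in control. All libraries of both knockdown genotypes were several times above every control library. Amy-d was at 16.9, 21.02 and 22.9 FPKM with both constructs, 26.99, 26.3 and 26.3 FPKM with NAT10 RNAi alone and 2.42, 3.07 and 2.99 FPKM in control. The Amy copies are near-identical neighbours on chromosome arm 2R (BDGP6, 17118636 to 17126369), so reads may be split between them and their levels are not independent. Mal-A3 was at 9.90, 11.5 and 12.5 FPKM with both constructs, 17.99, 18.4 and 18.6 FPKM with NAT10 RNAi alone and 1.04, 0.8397 and 1.16 FPKM in control. Mal-A4, its neighbour on 2R (8455909 to 8460884 for the pair), was at 15.2, 16.1 and 14.6 FPKM with both constructs, 14.8, 15.2 and 13.9 FPKM with NAT10 RNAi alone and 1.66, 1.72 and 1.55 FPKM in control. Log2 changes for Mal-A4 were 2.62 with both constructs and 2.56 with NAT10 RNAi alone, the only gene of the set whose knockdown libraries interleaved.

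Amy-p and Mal-A3 were lower with both constructs than with NAT10 RNAi alone, by a log2 difference of -0.71 ± 0.14 (SE; limma adjusted p = 0.0017) and -0.66 ± 0.08 (SE; limma adjusted p = 6.8e-05). For Amy-d the difference was -0.38 ± 0.10 (SE; limma adjusted p = 0.0073), and after libraries were rescaled by their median ratio it was -0.20 (adjusted p = 0.082), no longer past the threshold. Mal-A4 differed by 0.06 ± 0.06 (SE; limma adjusted p = 0.37), and after rescaling by 0.24 (adjusted p = 0.0036). Of the 13 listed starch and sugar digestion genes, these 4 were chosen for their level against control. Among the other 9, 6 were called higher and none lower with both constructs against control, where 21.5% of all tested genes were called higher and 19.2% lower. With NAT10 RNAi alone 7 of the 9 were higher and 1 lower, where 47.3% of all tested genes were higher and 18.9% lower. Among the other maltases, Mal-A1 had log2 differences from control of 0.31 with both constructs and 1.61 with NAT10 RNAi alone, and Mal-A5 had 0.01 with both constructs and -0.35 with NAT10 RNAi alone. Summed over the 13 genes, the level was 162 to 188 FPKM with both constructs, 259.5 to 262 FPKM with NAT10 RNAi alone and 100.1 to 103 FPKM in control. The 15 listed trypsins and other gut proteases, markers of the same organ, summed to 564 to 711 FPKM with both constructs, 780.0 to 798 FPKM with NAT10 RNAi alone and 603 to 647 FPKM in control. Whether the amount of gut in the larvae bears on the starch genes was not tested.

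The list of 21 muscle genes gave 5 members, all raised. Myosin heavy chain (Mhc) was at 396, 409 and 407 FPKM with both constructs, 479, 469 and 474 FPKM with NAT10 RNAi alone and 118, 117 and 114 FPKM in control. The essential myosin light chain Mlc1 was at 307, 354 and 342 FPKM with both constructs, 479.6, 487 and 472 FPKM with NAT10 RNAi alone and 161, 164 and 163 FPKM in control, and the regulatory light chain Mlc2 at 1309, 1336 and 1301 FPKM with both constructs, 1442, 1482 and 1412 FPKM with NAT10 RNAi alone and 588, 555 and 553 FPKM in control. The muscle genes had narrow spreads within each genotype, and no library of 1 genotype overlapped another's. Troponin T, encoded by up, was at 2195, 2215 and 2209.6 FPKM with both constructs, 2954, 3031 and 2981 FPKM with NAT10 RNAi alone and 1073, 1027 and 1048 FPKM in control, the highest level of any raised member. Unc-89, named Obsc in the reference annotation, encodes a giant protein of the muscle M-band and was at 4.46, 5.24 and 4.89 FPKM with both constructs, 7.29, 7.53 and 7.34 FPKM with NAT10 RNAi alone and 1.51, 1.39 and 1.403 FPKM in control.

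Among the 16 listed muscle genes that were no members, 13 were called higher and none lower with both constructs, and 13 higher and 2 lower with NAT10 RNAi alone. The shares of all tested genes were 21.5% higher and 19.2% lower with both constructs, and 47.3% higher and 18.9% lower with NAT10 RNAi alone. The sum of all 21 genes was 10062 to 10339.8 FPKM with both constructs, 12886 to 13085 FPKM with NAT10 RNAi alone and 6077 to 6296 FPKM in control. Of those that were no members, Act57B had a log2 difference from control of 0.95 with both constructs and 1.52 with NAT10 RNAi alone. Prm had 0.89 with both constructs and 0.83 with NAT10 RNAi alone, and sls 0.39 and 0.31. Between the knockdown genotypes, Mlc1 was lower with both constructs, at -0.52 ± 0.05 (SE; limma adjusted p = 6.6e-06), as were up at -0.44 ± 0.03 (SE; limma adjusted p = 1.1e-06) and Unc-89 at -0.52 ± 0.07 (SE; limma adjusted p = 6.4e-05). The difference in Mhc was -0.23 ± 0.03 (SE; limma adjusted p = 8.9e-05) and was -0.04 (adjusted p = 0.36) after rescaling. For Mlc2 it was -0.14 ± 0.04 (SE; limma adjusted p = 0.0085) and turned to 0.06 (adjusted p = 0.24).

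**Figure D2:**
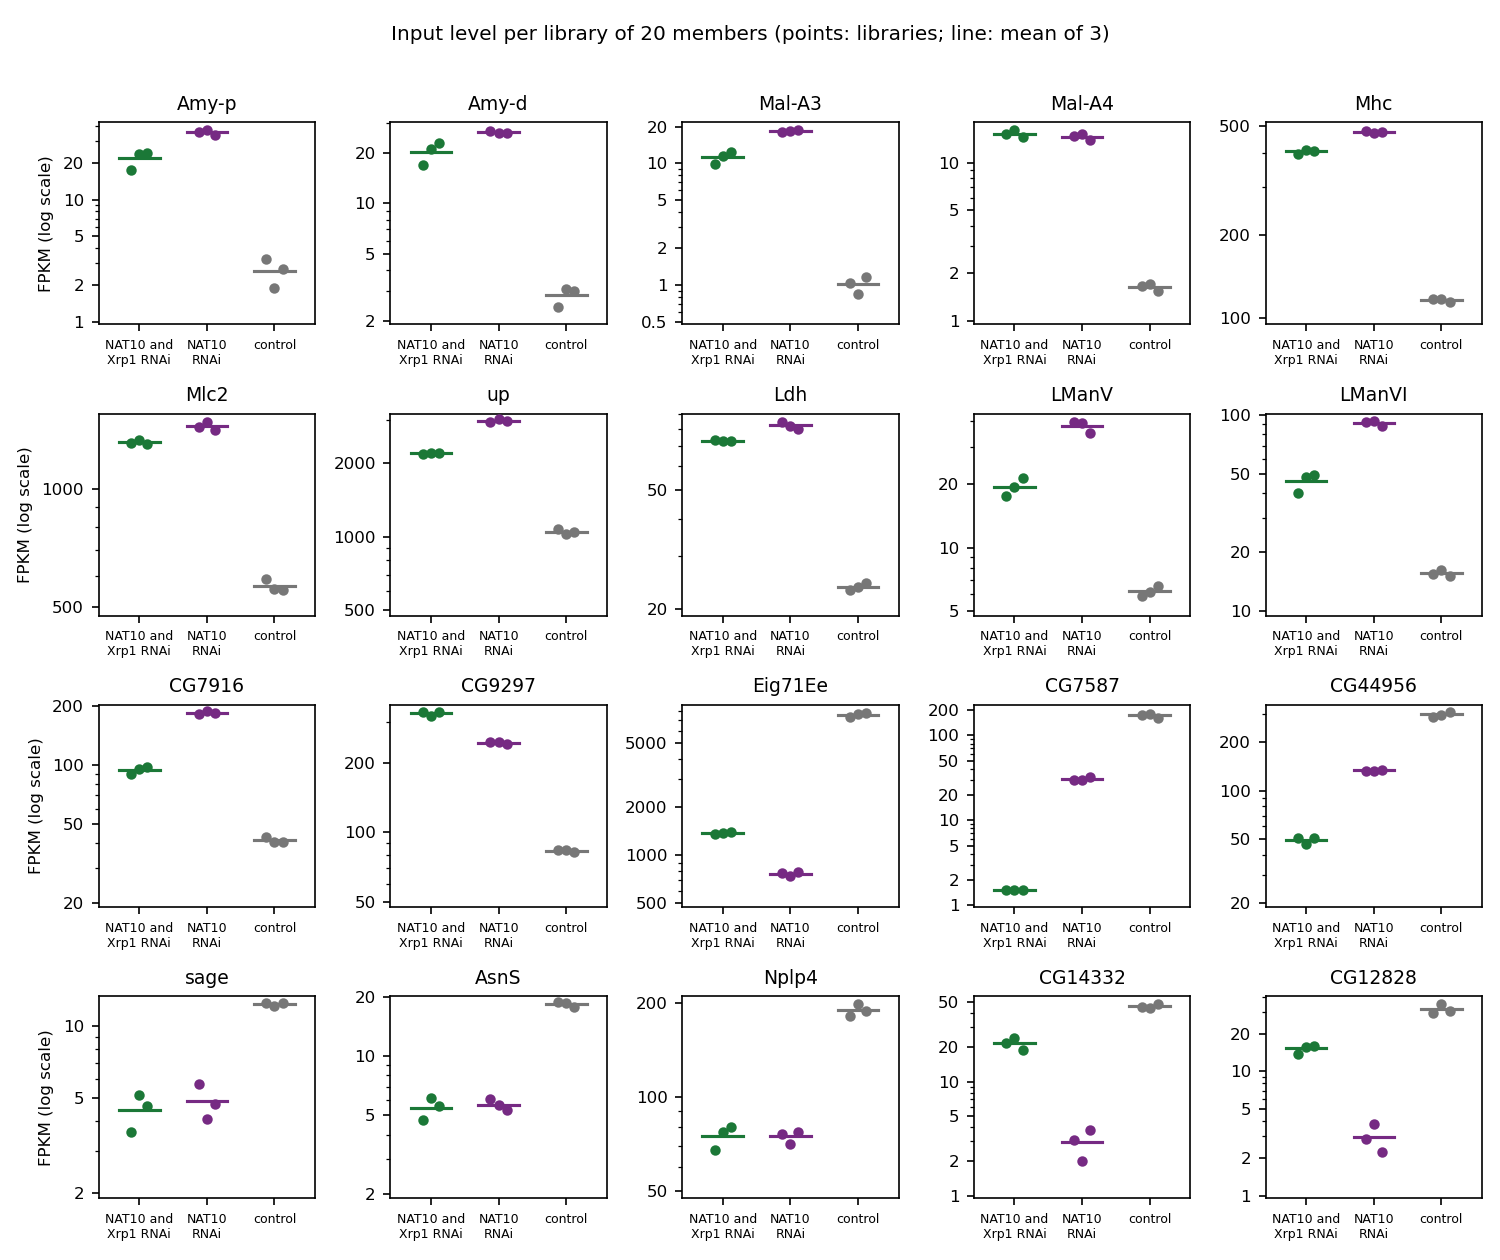
Input FPKM per library, on a log axis, for 20 members chosen to cover the groups described in the text. Points are libraries, lines are means of 3, and genotypes run from both constructs through NAT10 RNAi alone to control. In each of the 12 raised members all knockdown libraries lie above control, and in each of the 8 lowered members all lie below it. CG14332 and CG12828 sit far lower with NAT10 RNAi alone, and CG7587 far lower with both constructs.

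Lactate dehydrogenase and glycogen phosphorylase were the raised members among enzymes of sugar use. Ldh, which turns pyruvate to lactate, was at 73.4, 72.9 and 73.02 FPKM with both constructs, 84.4, 82.03 and 80.2 FPKM with NAT10 RNAi alone and 23.1, 23.7 and 24.5 FPKM in control. GlyP, which releases glucose units from glycogen, was at 135, 145 and 146 FPKM with both constructs, 187, 189 and 186 FPKM with NAT10 RNAi alone and 62.8, 60.9 and 58.6 FPKM in control. Both were at least 2-fold above control in every knockdown library. Between the knockdown genotypes GlyP was lower with both constructs, at -0.40 ± 0.04 (SE; limma adjusted p = 9.8e-06). Ldh differed by -0.17 ± 0.03 (SE; limma adjusted p = 0.0016) and, after rescaling, by 0.02 (adjusted p = 0.65). Of 23 other tested genes of sugar and energy metabolism, 12 were higher and 2 lower with both constructs, where 21.5% of all tested genes were higher and 19.2% lower. With NAT10 RNAi alone 21 were higher and 2 lower, where 47.3% of all tested genes were higher and 18.9% lower.

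A run of 4 lysosomal alpha-mannosidase genes, enzymes that trim mannose from sugar chains, was raised as a block. LManIII, LManIV, LManV and LManVI lie side by side on 2L (8765273 to 8781252), where they are all of the genes listed. This set and the neighbour sets that follow were picked out after their values were seen. LManVI was the highest, at 39.98, 48.4 and 49.8 FPKM with both constructs, 92.2, 93.1 and 88.3 FPKM with NAT10 RNAi alone and 15.4, 16.2 and 15.2 FPKM in control. LManV was at 17.7, 19.4 and 21.5 FPKM with both constructs, 39.5, 39.1 and 35.2 FPKM with NAT10 RNAi alone and 5.92, 6.19 and 6.598 FPKM in control. LManIII was at 6.10, 7.78 and 6.71 FPKM with both constructs, 10.2, 11.04 and 10.2 FPKM with NAT10 RNAi alone and 1.35, 1.19 and 1.28 FPKM in control, and LManIV at 2.704, 2.702 and 3.05 FPKM with both constructs, 6.44, 6.47 and 6.22 FPKM with NAT10 RNAi alone and 0.576, 0.669 and 0.509 FPKM in control. The knockdown libraries of each gene were well above control, and those with NAT10 RNAi alone were the highest. LManI and LManII lie elsewhere on 2L and were no members, with log2 changes of 0.11 and 0.51 for LManI and of 0.23 and 0.06 for LManII, with both constructs and with NAT10 RNAi alone. The file lists 8 genes with the alpha-mannosidase domains of this family. All 4 members were lower with both constructs, by log2 differences of -0.55 for LManIII, -0.95 for LManIV, -0.93 for LManV and -0.98 for LManVI.

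Some members lay near each other. Within 20 kb of another member of the same direction lay 27 raised and 8 lowered members, in 15 groups. The groups include antisense pairs that share bases, such as CG12715 with CR44840, and CG17325 with CG42305, which have the same span. Such a count was not made over all genes, so nothing is read from it. CG8997, CG7916 and CG7968 on 2L carry the domain of haemolymph juvenile hormone binding proteins, small secreted carriers of lipid-like molecules, as do 17 listed genes. CG7916 was at 89.4, 95.2 and 97.9 FPKM with both constructs, 182, 187 and 183 FPKM with NAT10 RNAi alone and 43.02, 40.7 and 40.6 FPKM in control. CG8997 was at 183, 217 and 206 FPKM with both constructs, 207, 212 and 200.0 FPKM with NAT10 RNAi alone and 95.2, 93.1 and 89.3 FPKM in control, and CG7968 at 12.6, 11.4 and 9.81 FPKM with both constructs, 13.4, 12.2 and 11.3 FPKM with NAT10 RNAi alone and 3.48, 3.06 and 2.999 FPKM in control. Between the knockdown genotypes CG7916 was called lower with both constructs, at -0.96 ± 0.04 (SE; limma adjusted p = 2.1e-08), while CG8997 and CG7968 differed by -0.03 ± 0.06 (SE; limma adjusted p = 0.65) and -0.12 ± 0.09 (SE; limma adjusted p = 0.25). After rescaling the difference in CG8997 was 0.16 (adjusted p = 0.01), called higher. CG7953, between them, was no member, with log2 changes of 0.68 with both constructs and 0.70 with NAT10 RNAi alone. Another group on 2L joined CG17107, CG7299 and CG7296, 1 on 3L joined CG12607, CG32241 and CG7465, and 2R held CG13560 beside CG11300. Sodh-2, a sorbitol dehydrogenase, and the antisense RNA CR45195 overlap on opposite strands, as do CG14273 and CR45371. How strand was treated in the counting is not given in the sources used here, so reads of these pairs may not be separable.

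Single members came from several other tissues and roles. Uro, the urate oxidase of the Malpighian tubule, was at 6.68, 8.48 and 9.31 FPKM with both constructs, 33.7, 33.2 and 30.9 FPKM with NAT10 RNAi alone and 2.69, 2.68 and 2.93 FPKM in control. DptA, the antimicrobial peptide Diptericin A, was at 11.9, 15.02 and 15.7 FPKM with both constructs, 9.44, 11.04 and 9.598 FPKM with NAT10 RNAi alone and 3.54, 4.51 and 3.73 FPKM in control, and Tep4, a thioester-containing protein of the blood system, at 14.6, 16.7 and 17.2 FPKM with both constructs, 17.2, 18.2 and 17.4 FPKM with NAT10 RNAi alone and 7.78, 7.197 and 7.03 FPKM in control. Gnmt, glycine N-methyltransferase, which uses up the methyl donor S-adenosylmethionine, was at 12.2, 14.4 and 12.3 FPKM with both constructs, 7.80, 8.65 and 8.83 FPKM with NAT10 RNAi alone and 3.27, 2.47 and 2.63 FPKM in control. These genes are unlike in order: Uro was highest with NAT10 RNAi alone, Gnmt and DptA with both constructs, and Tep4 overlapped between the knockdowns. With both constructs, 3 of 10 other tested Malpighian tubule genes were called higher than control and none lower. Higher and lower were 9 and 1 of 20 other antimicrobial genes, and 9 and 2 of 19 other blood cell genes. With NAT10 RNAi alone the counts were 8 and 0, 11 and 4, and 14 and 2. Of all tested genes, 21.5% were higher and 19.2% lower with both constructs, and 47.3% and 18.9% with NAT10 RNAi alone. Muc55B, a mucin, had log2 changes of 1.20 with both constructs and 2.36 with NAT10 RNAi alone. The lipase CG6295 had 1.18 with both constructs and 1.09 with NAT10 RNAi alone. For the cuticle protein TwdlX they were 1.34 with both constructs and 1.95 with NAT10 RNAi alone. For sit, listed with ecdysone synthesis, they were 1.41 with both constructs and 1.90 with NAT10 RNAi alone. Of the other 9 tested ecdysone synthesis genes, none were called higher than control and 5 lower with both constructs. All tested genes were 21.5% higher and 19.2% lower there. With NAT10 RNAi alone none of the 9 were higher and 6 were lower, beside 47.3% and 18.9% of all tested genes. Beside the same shares, 17 of 38 other peritrophic matrix, mucin and chitin genes were higher with both constructs and 7 lower. Of 8 other listed lipase genes 3 were higher and none lower, and of 9 other listed cuticle genes 5 and 2. With NAT10 RNAi alone these 3 counts were 23 and 7, 6 and 1, and 2 and 3. Further members with a known class were Acbp6, an acyl-CoA binding protein, at 411 ± 9.58 FPKM with both constructs, 619.9 ± 4.39 FPKM with NAT10 RNAi alone and 171 ± 7.55 FPKM in control (SD, n = 3 each), ninaD, a scavenger receptor for carotenoid uptake, Vha100-4, a subunit of the vacuolar proton pump, Alp6, an alkaline phosphatase, and alpha-Est1, a carboxylesterase.

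Many of the most raised members have no well known role. CG42369 was at 16.4, 22.5 and 23.1 FPKM with both constructs, 52.2, 48.6 and 50.4 FPKM with NAT10 RNAi alone and 2.43, 2.902 and 2.77 FPKM in control. CG9757 was at 29.7, 36.6 and 30.5 FPKM with both constructs, 127, 148 and 136 FPKM with NAT10 RNAi alone and 5.09, 4.52 and 5.50 FPKM in control, and CG14419 at 36.2, 36.6 and 41.97 FPKM with both constructs, 142, 139 and 141 FPKM with NAT10 RNAi alone and 6.24, 6.63 and 6.896 FPKM in control. For these, the libraries with NAT10 RNAi alone lay furthest above control. CG15597 was at 4.17, 4.27 and 5.79 FPKM with both constructs, 16.97, 13.9 and 14.4 FPKM with NAT10 RNAi alone and 0.727, 0.383 and 0.255 FPKM in control. The noncoding RNA CR45022 was at 4.08, 6.62 and 5.46 FPKM with both constructs, 10.9, 12.1 and 10.3 FPKM with NAT10 RNAi alone and 0.205, 0.194 and 0.00 FPKM in control, the last control library having none. lectin-22C, a C-type lectin, was at 5.71, 6.97 and 6.403 FPKM with both constructs, 9.15, 7.59 and 8.66 FPKM with NAT10 RNAi alone and 0.896, 0.728 and 0.742 FPKM in control. CG43348 was at 30.0, 34.5 and 31.6 FPKM with both constructs, 26.3, 26.4 and 28.1 FPKM with NAT10 RNAi alone and 7.38, 6.99 and 6.08 FPKM in control, and CG9297 at 330.5, 319.8 and 332 FPKM with both constructs, 246, 245 and 242 FPKM with NAT10 RNAi alone and 83.4, 84.2 and 82.2 FPKM in control. In CG9297 and CG43348 the libraries with both constructs were the highest, without overlap.

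Lowered members included genes of the larval salivary gland. CG7587 and CG44956, named Sgs5bis and Sgsf in the reference annotation and so of the glue family, passed the rule because the deposited table gives them no Sgs name. CG7587 was at 1.52, 1.505 and 1.497 FPKM with both constructs, 29.6, 29.4 and 32.2 FPKM with NAT10 RNAi alone and 174, 179.5 and 162 FPKM in control. CG44956 was at 50.9, 46.9 and 50.7 FPKM with both constructs, 133, 133 and 134 FPKM with NAT10 RNAi alone and 286, 296 and 309 FPKM in control. In both, the libraries with both constructs were the lowest and control the highest. The glycosyltransferase-like gene CG12715 was at 1.22, 1.82 and 1.22 FPKM with both constructs, 2.36, 2.52 and 2.55 FPKM with NAT10 RNAi alone and 7.65, 7.84 and 7.73 FPKM in control. sage, a basic helix-loop-helix factor of the salivary gland, was at 3.61, 5.13 and 4.61 FPKM with both constructs, 5.69, 4.09 and 4.69 FPKM with NAT10 RNAi alone and 12.5, 12.05 and 12.4 FPKM in control. Of the glue genes fixed in the salivary list, ng2 was instead a raised member, at 99.6, 74.9 and 71.1 FPKM with both constructs, 96.4, 96.3 and 104 FPKM with NAT10 RNAi alone and 37.6, 33.2 and 37.5 FPKM in control. That list of 8 genes was drawn up with earlier results of these libraries known. Of its 5 genes that were no members, 1 was called higher and 3 lower with both constructs, beside 21.5% higher and 19.2% lower over all tested genes. With NAT10 RNAi alone 2 were higher and 3 lower, beside 47.3% and 18.9%. CG7906 and CG13606 were no members: their log2 differences from control were -0.40 and -0.36 with both constructs and -5.43 and -4.83 with NAT10 RNAi alone. The list's sum was 483 to 508 FPKM with both constructs, 488 to 501 FPKM with NAT10 RNAi alone and 729 to 771 FPKM in control.

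The most abundant lowered member was Eig71Ee, an ecdysone-induced gene, at 1351, 1382 and 1389 FPKM with both constructs, 773, 742 and 781 FPKM with NAT10 RNAi alone and 7295, 7600.5 and 7717 FPKM in control. It was the only member among 24 tested ecdysone response genes. Of the other 23, 2 were higher and 11 lower with both constructs, where 21.5% of all tested genes were higher and 19.2% lower. With NAT10 RNAi alone 2 were higher and 19 lower, where 47.3% of all tested genes were higher and 18.9% lower. Eig71Ee carried most of that list's sum, which was 2209.9 to 2239 FPKM with both constructs, 1143 to 1189 FPKM with NAT10 RNAi alone and 8365 to 8769 FPKM in control. Control and NAT10 knockdown larvae differ in harvest time, and its part in these levels was not tested. AsnS, asparagine synthetase, was at 4.72, 6.11 and 5.57 FPKM with both constructs, 6.05, 5.65 and 5.34 FPKM with NAT10 RNAi alone and 18.8, 18.6 and 17.7 FPKM in control. Nplp4, a neuropeptide-like precursor, was at 67.6, 77.6 and 80.3 FPKM with both constructs, 76.2, 70.9 and 77.6 FPKM with NAT10 RNAi alone and 181, 199 and 188 FPKM in control. pen-2, a subunit of the gamma-secretase complex, was at 6.11, 6.56 and 6.81 FPKM with both constructs, 5.55, 7.42 and 6.61 FPKM with NAT10 RNAi alone and 15.7, 16.8 and 17.7 FPKM in control. In these 3 genes the knockdown genotypes overlapped each other and stood clear of control.

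CR45210, an antisense RNA overlapping nes, had the largest smaller change of all lowered members, at 11.4, 10.2 and 9.51 FPKM with both constructs, 5.19, 5.38 and 5.88 FPKM with NAT10 RNAi alone and 93.9, 79.6 and 82.8 FPKM in control. CG42460 was at 7.45, 9.73 and 6.95 FPKM with both constructs, 6.45, 5.88 and 7.41 FPKM with NAT10 RNAi alone and 46.8, 48.6 and 43.99 FPKM in control. CG3397 was nearly absent from the knockdowns, at 0.108, 0.149 and 0.00 FPKM with both constructs, 0.197, 0.416 and 0.373 FPKM with NAT10 RNAi alone and 5.36, 6.35 and 5.21 FPKM in control. The pseudogene CR43482 was at 1.83, 1.34 and 2.21 FPKM with both constructs, 3.32, 3.27 and 3.46 FPKM with NAT10 RNAi alone and 20.9, 19.5 and 14.8 FPKM in control. CG15404 had log2 changes of -2.67 with both constructs and -2.15 with NAT10 RNAi alone, and its neighbour CG31698 of -1.89 with both constructs and -1.72 with NAT10 RNAi alone. CG34279 was at 13.2, 16.9 and 18.9 FPKM with both constructs, 11.6, 12.4 and 13.8 FPKM with NAT10 RNAi alone and 43.4, 46.3 and 41.1 FPKM in control, and CG43117 at 125, 140.3 and 130.3 FPKM with both constructs, 242, 231 and 235 FPKM with NAT10 RNAi alone and 520.4, 529 and 575 FPKM in control. CG17325 and CG42305 have the same span and the same values, so they count as 1 measurement, and CR44840 is antisense to CG12715. The nuclease-like gene CG3819, at 7.92, 8.65 and 9.62 FPKM with both constructs, 4.196, 3.85 and 4.204 FPKM with NAT10 RNAi alone and 19.7, 18.1 and 19.7 FPKM in control, was lowered, whereas CG6839 and CG14120, which carry a non-specific endonuclease domain, were raised with log2 changes of 1.35 with both constructs and 1.74 with NAT10 RNAi alone and 1.51 with both constructs and 2.48 with NAT10 RNAi alone.

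Set against each other, the knockdown genotypes differed in most raised members. With both constructs, 60 of 76 were called lower than with NAT10 RNAi alone, 4 were called higher and 12 were not called (limma, two-sided, Benjamini-Hochberg over 11557 genes). Over all tested genes 46.1% were called lower and 15.2% higher. Those genes were not chosen for a rise against control, while the members were, in the same libraries. Of genes with a mean of at least 5 FPKM, 5.99% rose at least 2-fold with NAT10 RNAi alone and 1.55% with both constructs. This share and those that follow are therefore not of like sets, and no excess is read from them. Without replicate 1 with both constructs, 59 raised members were lower and 6 higher. The median difference was -0.53 in the raised members and -0.16 over all genes. Rescaling libraries by their median ratio brought the median of all genes to 0.00, and then 48 raised members were lower, 9 higher and 19 not called, with a median of -0.35, beside 27.5% lower and 28.3% higher over all genes. At least 2-fold, 17 raised members were lower with both constructs and none were higher. The share of all genes at this fold was not counted, so nothing is read from these counts. The 3 libraries did not overlap in 59 raised members that were lower and 4 that were higher, against 48.9% and 16.7% of all genes.

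Nplp2, a neuropeptide-like precursor, had the widest gap of the raised members, at 6.54, 7.85 and 8.02 FPKM with both constructs, 80.5, 87.03 and 77.1 FPKM with NAT10 RNAi alone and 2.34, 2.39 and 2.37 FPKM in control. Its difference between knockdowns was -3.29 ± 0.07 (SE; limma adjusted p = 1.5e-10). CG11300 was at 21.4, 28.2 and 26.4 FPKM with both constructs, 156, 156 and 158 FPKM with NAT10 RNAi alone and 6.89, 7.07 and 7.06 FPKM in control, a difference of -2.59 ± 0.08 (SE; limma adjusted p = 1.7e-09). These genes stood close to control with both constructs in relation to their level with NAT10 RNAi alone. CG9757, Uro and CG14419 were lower, with log2 differences of -2.06, -1.89 and -1.86. In the other direction, Gnmt was higher with both constructs by 0.56 ± 0.09 (SE; limma adjusted p = 3.8e-04), DptA by 0.46 ± 0.11 (SE; limma adjusted p = 0.0037), CG9297 by 0.42 ± 0.03 (SE; limma adjusted p = 9.4e-07) and CG43348 by 0.24 ± 0.07 (SE; limma adjusted p = 0.012). All 4 stayed higher after rescaling.

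**Figure D3:**
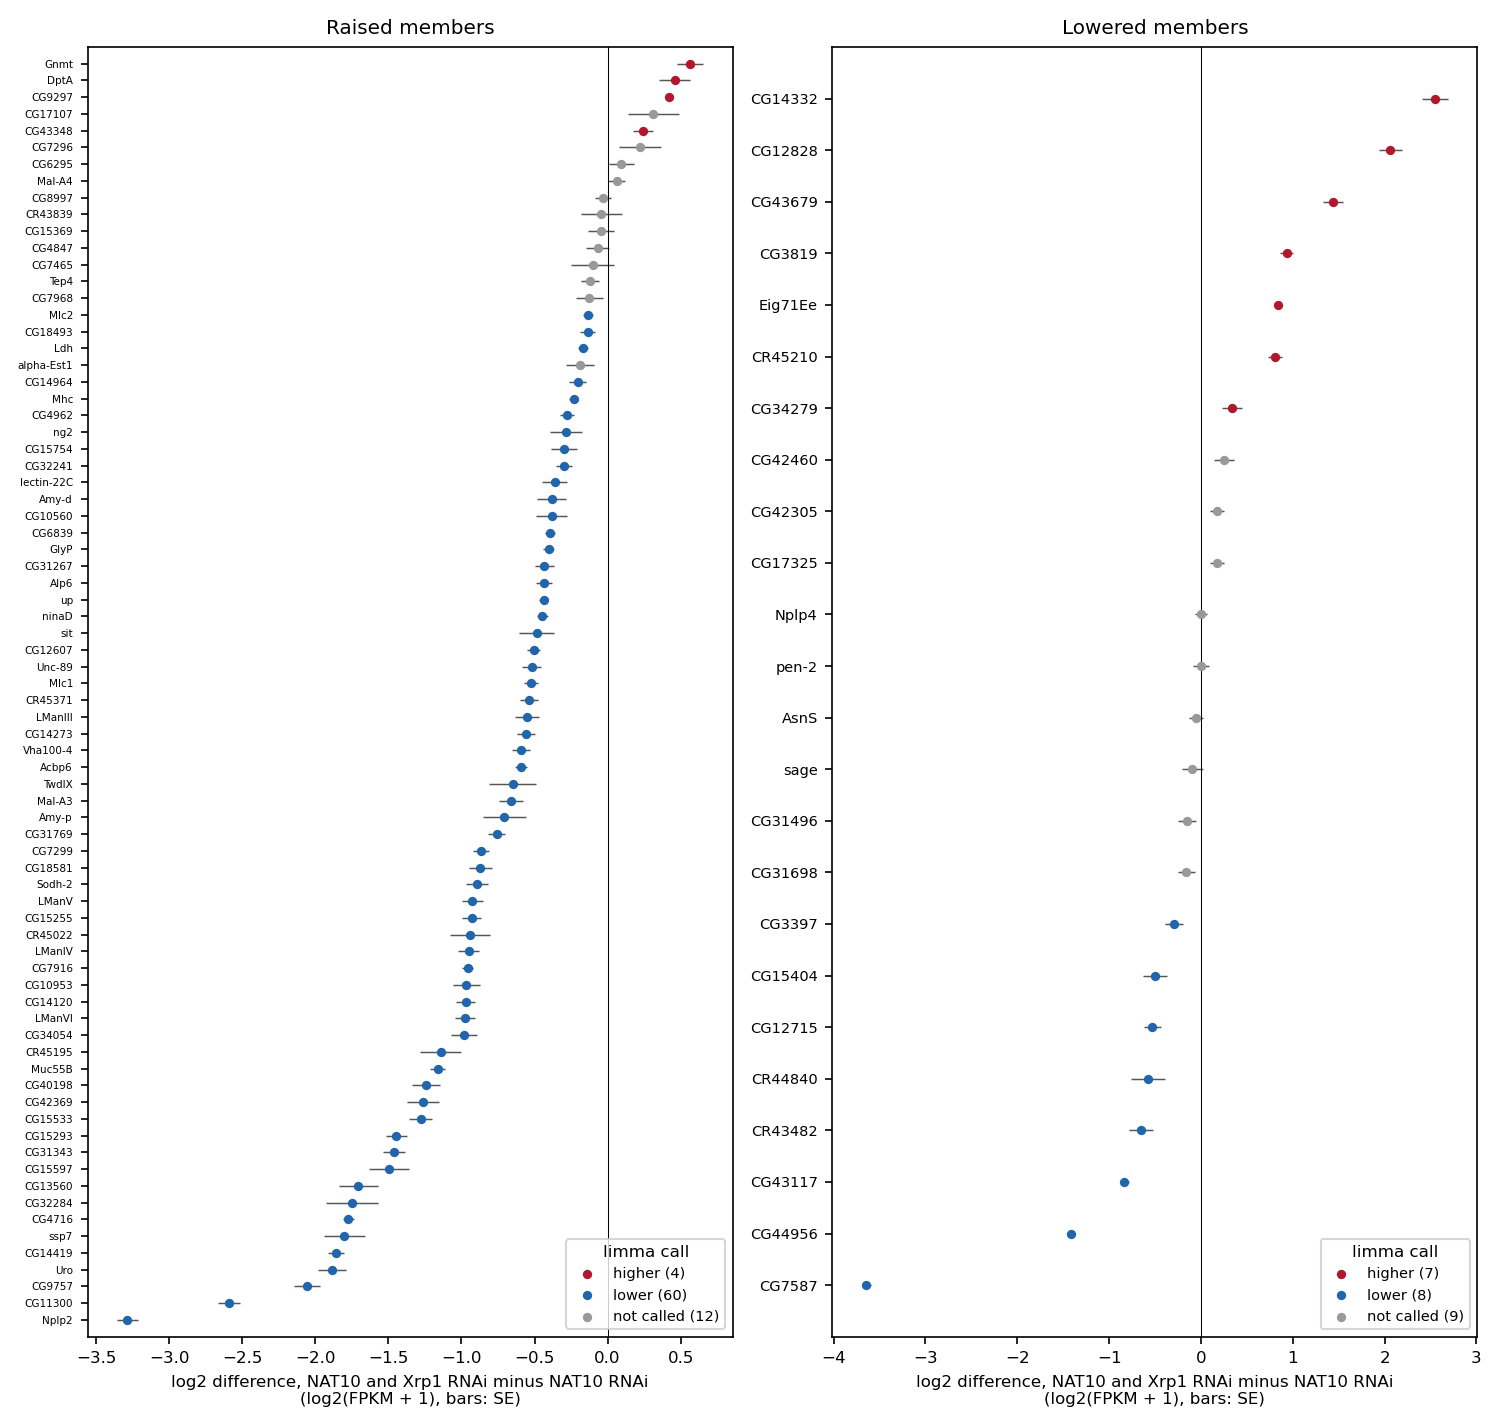
Log2 difference in input level, both constructs minus NAT10 RNAi alone, with its SE from the fit over 9 input libraries, for raised members (left) and lowered members (right). Red points were called higher, blue points lower and grey points not called. In the left panel 60 of 76 points are blue and lie left of 0, and in the right panel the points spread from -3.64 for CG7587 to 2.55 for CG14332.

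Lowered members showed no common direction between the knockdown genotypes. With both constructs 7 of 24 were called higher, 8 lower and 9 not called, with a median difference of -0.03. Over all tested genes 15.2% were called higher and 46.1% lower. After rescaling 11 members were higher, 7 lower and 6 not called, with a median of 0.14. The shares over all genes were then 28.3% higher and 27.5% lower. Without replicate 1 with both constructs, 9 lowered members were higher and 7 lower. CG14332 was at 21.96, 24.3 and 19.2 FPKM with both constructs, 3.08, 2.01 and 3.78 FPKM with NAT10 RNAi alone and 45.2, 44.7 and 48.1 FPKM in control, a difference of 2.55 ± 0.14 (SE; limma adjusted p = 1.8e-07). CG12828 was at 13.9, 15.8 and 16.1 FPKM with both constructs, 2.87, 3.77 and 2.22 FPKM with NAT10 RNAi alone and 29.4, 35.2 and 30.7 FPKM in control, a difference of 2.06 ± 0.13 (SE; limma adjusted p = 3.2e-07). For these, control was highest and NAT10 RNAi alone lowest, with no overlap between any pair of genotypes. CG43679 was higher with both constructs by 1.44 ± 0.11 (SE; limma adjusted p = 1.7e-06), CG3819 by 0.93 ± 0.07 (SE; limma adjusted p = 1.3e-06) and Eig71Ee by 0.84 ± 0.04 (SE; limma adjusted p = 2.3e-08). Lower with both constructs were CG7587 at -3.64 ± 0.05 (SE; limma adjusted p = 5.7e-12), CG44956 at -1.41 ± 0.04 (SE; limma adjusted p = 1.3e-09) and CG43117 at -0.84 ± 0.05 (SE; limma adjusted p = 3.1e-07). CR43482 was lower at -0.65 ± 0.13 (SE; limma adjusted p = 0.0017), a call lost with DESeq2 (adjusted p = 0.077), and CR44840 at -0.58 ± 0.19 (SE; limma adjusted p = 0.021). The call for CR44840 was lost after rescaling, at -0.45 (adjusted p = 0.054), with edgeR (adjusted p = 0.081) and DESeq2 (adjusted p = 0.13), and without any 1 of replicates 1 and 3 of either knockdown genotype, with adjusted p of 0.059 to 0.072. Nplp4, pen-2 and AsnS differed by 0.00 ± 0.06 (SE; limma adjusted p = 0.98), 0.00 ± 0.09 (SE; limma adjusted p = 1) and -0.05 ± 0.08 (SE; limma adjusted p = 0.59). For Nplp4 the difference was 0.19 (adjusted p = 0.013) after rescaling.

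CG14332 and CG34279 lie in a stretch of 10 listed genes on 3R (17402362 to 17422202). Its other genes include CG42834, with log2 changes of -0.90 with both constructs and -2.84 with NAT10 RNAi alone, and CG5866, with 0.02 and -1.80. Between the knockdowns CG42834 was higher with both constructs by 1.93 and CG5866 by 1.82. CG42822, in the same stretch, had changes of 0.12 and 0.21. Members near the threshold were close to genes outside it. Among raised genes, Alp6 (1.002 and 1.44) and CR43839 (1.01 and 1.05) were just inside, and CG7631 (0.99 and 1.67) and alpha-Est2 (0.99 and 1.71) just outside, with both constructs and with NAT10 RNAi alone. Among lowered genes, CG12828 (-1.01 and -3.05) and CG14332 (-1.04 and -3.57) were just inside, and CG42798 (-0.98 and -2.43) and His4r (-1.56 and -0.97) just outside.

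Members were also looked up in the authors' ac4C peak lists, 1 list per genotype with no replicates. A member counted if a listed peak shared at least 1 base with the gene on the same strand. Of 76 raised members, 66 had a peak in the list for both constructs, 71 in the list for NAT10 RNAi alone and 62 in the control list. Of 24 lowered members, 18 had one in the list for both constructs, 17 in that for NAT10 RNAi alone and 21 in the control list. Over genes with a mean of at least 5 FPKM the shares were 87.5% for both constructs, 87.4% for NAT10 RNAi alone and 88.4% for control. Peaks in all 3 lists were found for 59 raised and 14 lowered members, in both knockdown lists alone for 7 raised members, Amy-p among them, and 1 lowered member, and in the control list alone for 2 lowered members and 1 raised member. The rest had peaks in other combinations of lists, or in none for 4 raised and 2 lowered members. Combinations of lists were not counted over all genes, so nothing is read from them. Peak calling needs reads, and the part of transcript level in these counts was not tested.

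In the authors' deposited tables of differential ac4C peaks against control, 16 members had 1 or more entries. The table for both constructs held 16 entries in 11 members, 10 with a higher and 6 with a lower IP signal relative to input, 3 of them with the authors' FDR under 0.05. It held 1316 peaks in all, 608 higher and 708 lower, 204 with FDR under 0.05, and 8.65% of all listed genes had an entry. The table for NAT10 RNAi alone held 16 entries in 9 members, 1 higher and 15 lower, 6 with FDR under 0.05. That table held 1336 peaks in all, 320 higher and 1016 lower, 166 with FDR under 0.05, and 8.94% of all listed genes had an entry, so the share of members with an entry is close to that of all genes in both tables. Several entries overlap, so they are not independent sites. The members in both tables were CG14120, CG14964, LManIV and pen-2. At the pen-2 peak on 2R, the ratio of IP to input reads was 4.55, 5.31 and 3.10 with both constructs, 4.93, 2.97 and 3.58 with NAT10 RNAi alone and 2.44, 1.77 and 2.10 in control. The authors' deposited table gives log2 changes of 1.01 with both constructs and 1.03 with NAT10 RNAi alone for this peak, whose gene was lowered in the input of both.

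For Nplp4, also lowered, the ratio was 5.16, 3.95 and 4.34 with both constructs and 2.16, 1.75 and 2.50 in control. The authors' deposited table gives a log2 change of 1.07. CG7968, a raised member, had ratios of 2.02, 2.31 and 2.08 with both constructs and 4.50, 3.92 and 6 in control, and -1.15 in the authors' deposited table. CG7296, raised as well, had ratios of 9.75, 6.33 and 8.60 with NAT10 RNAi alone and 34.9, 18.6 and 21.4 in control, and -1.35 in the authors' deposited table. Control input at this CG7296 peak was only 17, 26 and 27 reads. CG15533, lectin-22C, CG12715, LManIV, Vha100-4, CG14120, CG14964, CG32284 and CR45195 had entries with 2 or fewer input reads in at least 1 library, so no ratio is read from them. Input reads enter the ratio, and input levels chose the members, so these entries are not an independent readout. CG9297 had ratios of 1.65, 2.92 and 1.81 with both constructs and 1.17, 0.647 and 0.538 in control, with an FDR of 0.0572 in the authors' deposited table.

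**Figure D4:**
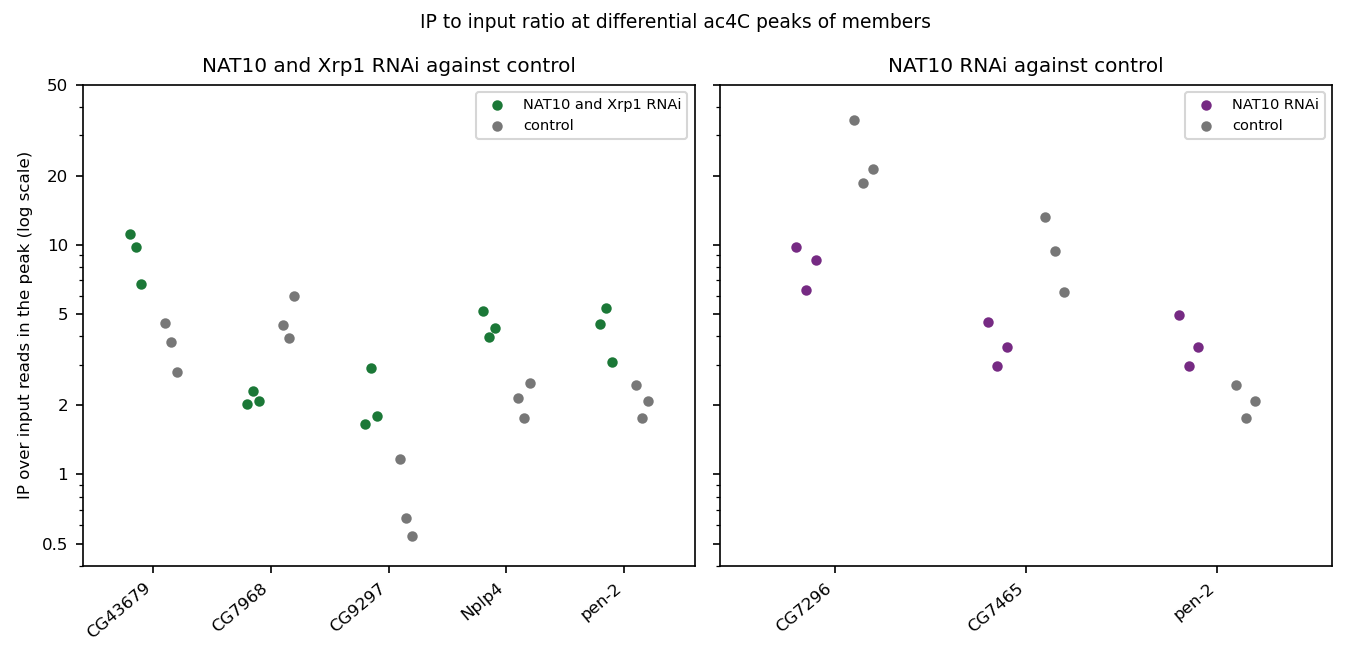
Ratio of IP to input reads in listed differential peaks of members, on a log axis, for both constructs against control (left) and NAT10 RNAi alone against control (right). Each point is 1 replicate number, 1 peak is shown per gene, and only peaks with at least 4 input reads in every library are drawn. At pen-2 the knockdown ratios lie at 2.97 or more and the control ratios at or below 2.44 in both panels, and at CG7296 and CG7465 the knockdown ratios lie below control. The ratios are not scaled for library depth.

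Further features of the members are given as a description. As deposited, names made of CG or CR and a number were 57.9% of raised and 79.2% of lowered members. Some of these have a name in the reference annotation, such as CG7587 and CG44956. The share was 42.7% of genes with a mean of at least 5 FPKM. Median gene length was 1346.5 bases for raised, 695.5 bases for lowered and 1961.5 bases for those genes. Members lack the families that the rule dropped by name, and the comparison genes keep them, so neither comparison is of like sets. Noncoding genes and pseudogenes made up 4 raised and 3 lowered members. Raised members fell on 2L (24), 3R (18), 2R (15), 3L (12) and X (7), and lowered members on 3R (8), 2L (6), 3L (6), 2R (2) and X (2). Exon bases were shared with another annotated gene in 20 members, on the opposite strand in 17 and on the same strand in 3. Noncoding genes, chromosomes and shared exon bases were not counted over all genes, so nothing is read from these counts. In the authors' deposited tables of differential genes, 100 members were among 346 genes for both constructs, 28.9% of that list. For NAT10 RNAi alone 98 were among 1261 genes, CG6295 and CG8997 being the exceptions. Every gene in those tables lies 2-fold or more from control, in the same input libraries that chose the members. Most of this overlap was therefore set by the rule, so nothing is read from it.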

How the data were processed

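Input and ac4C IP libraries of whole larvae were compared in 3 genotypes of 3 replicates. The submitters' processing notes name HOMER 4.9.1, deepTools 3.5.1, bedtools 2.30.0, Subread 1.5.1 with featureCounts, STAR 2.7.6a, fastp 0.23.1 and the build BDGP6, without roles. No source used here gives the peak caller, the strand setting or the use of molecular identifiers. The gene table deposited by the authors lists FPKM, per the file headers, for each input library. In the peak lists, the authors deposited a fold enrichment, which is a ratio, and a p-value. In the tables of differential peaks and genes, the authors deposited a log2 change and an FDR, and for peaks the read counts of each input and IP library. From the values, listed differential peaks reach a log2 change of 1 in either direction at a p of at most 0.05. The gene tables' own per-library columns repeat the FPKM and were not used, and IP libraries enter through the authors' tables alone.

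Reads per gene were recovered from FPKM and gene length, with 100% of values within 0.1 of a whole read, and served edgeR 4.0.16 and DESeq2 1.42.0 as alternatives. Tests ran on log2(FPKM + 1) with limma 3.58.1 (trend, robust; R 4.3.3), for the 11557 genes with at least 1 FPKM in at least 3 of 9 input libraries. They were two-sided, in 1 fit without a block, adjusted by Benjamini-Hochberg, with 0.05 as threshold. A fold change on this scale understates the change of low genes. All 76 raised and 24 lowered members passed this filter. The fit, edgeR and DESeq2 were tested on simulated data with known changes. The simulation gave all genes and libraries the same spread beyond counting noise. It held no replicate that stood apart and no shift common to all genes, so it does not cover those cases. By identifier, 99 of 100 members matched the BDGP6 reference annotation, Nplp2 being the exception, and 90 had the same span there.

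The members and the 28 gene lists were chosen with earlier results of these data known. Genes named were the 10 raised and 10 lowered members with the largest smaller-of-both change, the 5 with the largest called difference between knockdowns in each direction, up to 4 members of each list with at least 2, the 2 members and 2 genes nearest the threshold on each side, and up to 8 members with differential peaks. Members named beyond this were chosen after their values were seen: neighbour groups, single list members, members with a known class, sage, pen-2, CG44956, CG17325, CG42305, CG6839 and the peaks of CG7296, CG7465, CG7968 and CG43679. The peak drawn for a member was that with the lowest FDR. Peaks were matched to genes by position, since the peak lists carry no gene names. Alternatives changed the pseudocount, filter, scaling, threshold, tool, replicate block, peak overlap and libraries.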

Additional observations from a re-analysis of the deposited data

Results flagged for a closer look

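The difference from control was itself different between the knockdown genotypes, by at least 4-fold, in 6 members, each also called after rescaling of the libraries. The size of 4-fold was chosen after the data were seen, and the share of all genes at that size was not counted. Each value is the log2 difference in input level, both constructs minus NAT10 RNAi alone, which is also the difference of the effects against control, tested with limma. Among raised members, Nplp2, a neuropeptide-like precursor, had -3.29, CG11300 had -2.59 and CG9757 had -2.06. In these 3 members all libraries with both constructs lay below all those with NAT10 RNAi alone. Among lowered members, the glue family gene CG7587 had -3.64, and CG12828 and CG14332 had 2.06 and 2.55. Libraries of the knockdown genotypes did not overlap in any of these.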

How the results depend on the processing

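The number of members depended on the rule: with a pseudocount of 5 there were 38 raised and 14 lowered, with one of 0.1 there were 111 and 27, with 20 FPKM as the lowest mean 44 and 13, and with a log2 threshold of 1.5 there were 30 and 9. Leaving out 1 library at a time gave 72 to 82 raised and 22 to 25 lowered. Between the knockdown genotypes, rescaling, edgeR and DESeq2 each gave 9 raised and 11 lowered members higher with both constructs, against 4 and 7, and DESeq2 gave 5 lowered members lower, against 8. Without 1 library at a time, 4 to 6 raised members were higher and 57 to 60 lower, and 6 to 9 lowered members were higher and 6 to 9 lower. The cause was not tested.

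Same-numbered replicates of different genotypes had correlations of deviations of -0.07 to 0.08 over 9 pairs, so they share only a number. With the replicate block, 4 raised members were higher and 60 lower, and 9 lowered members were higher and 8 lower. Of 846 alternatives over 50 named members, 778 kept direction and call, 39 lost the call and 12 gained it. The sign of the difference between knockdowns turned in 5 members. For AsnS it was 0.11 after rescaling, 0.13 with edgeR, 0.14 with DESeq2 and, leaving out 1 library at a time, -0.12 to 0.034. For Mlc2 it was 0.058, 0.040 and 0.056 after rescaling, with edgeR and with DESeq2, for Ldh 0.025, 0.0057 and 0.022, and for CR43839 0.12, 0.12 and 0.14, with -0.12 to 0.011 over the left-out libraries. For Nplp4 that range was -0.048 to 0.075. The call between knockdowns was lost without any 1 of NAT10 RNAi replicates 2 and 3 or both-construct replicate 3 for CG3397, of NAT10 RNAi replicates 1 and 2 or both-construct replicates 2 and 3 for CG34279, and of NAT10 RNAi replicates 1, 2 and 3, both-construct replicates 2 and 3 or control replicates 1 and 3 for ng2. Counts of members with a peak stayed within 1.5 times under a stricter list, an overlap of at least 50% or no strand rule. The plan to use gene names in the peak lists was not run, since the lists hold none. Depth limits the values of members under a few FPKM, such as CG3397 and CR44840.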
